A study of Mus musculus with 4 samples.

Results

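Serine synthesis and the folate one-carbon cycle were described here through 9 mouse enzymes, Phgdh, Psat1, Psph, Shmt1, Shmt2, Mthfd1, Mthfd1l, Mthfd2 and Aldh1l2, measured in ileal RNA. The members were taken as every non-control probe whose RefSeq accession maps to these symbols, which gave 14 probes among 39382, and all 9 genes were among the 21649 genes and transcripts tested. The 2 metformin samples came from C57BL/6J male mice 10 weeks old that received 1000 mg/kg metformin by mouth, and the 2 control samples from C57BL/6J male mice of the same age. The length of treatment and a vehicle are not given in the sources used here. Metformin is a glucose-lowering biguanide, and the comparison asked how it changes gene expression in the ileum, the distal small intestine. Whether the 2 samples of a group are separate animals is not given, so p-values reflect the spread between samples, possibly a technical one.

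Serine is made from the glycolytic intermediate 3-phosphoglycerate in 3 steps, catalysed in turn by PHGDH, PSAT1 and PSPH. The serine hydroxymethyltransferases, SHMT1 in the cytosol and SHMT2 in mitochondria, move a carbon from serine to tetrahydrofolate and leave glycine. Mitochondrial MTHFD2 and MTHFD1L oxidise that unit and release it as formate, ALDH1L2 oxidises it to carbon dioxide, and cytosolic MTHFD1 returns formate to the folate pool that feeds purine and thymidylate synthesis. Several of these genes are known targets of ATF4, the transcription factor of the integrated stress response, and proliferating cells draw on the pathway for nucleotides.

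No member passed the test between metformin and control, and the samples of the 2 groups overlapped in all 9. The mean was lower with metformin in 9 of 9 members, by 0.18 to 0.84 on the log2 scale (median difference -0.54), against a lower mean in 42.1% of all genes tested. Standard errors of the members' differences ran from 0.45 to 1.44, and limma's adjusted p was 0.9996 for each. The widest separation ran across both groups: in 9 of 9 members the samples labelled 2 were above the samples labelled 1, as in 27.6% of all genes, while 38.2% of genes had them below and no member did. Psat1 and Mthfd2 spanned 3.50 and 3.34 log2 units over the 4 arrays. The lower mean with metformin depended on the arrays used: without metformin 1 it held in 3 of 9 members and without control 2 in 2 of 9. Without metformin 2 or without control 1 it held in 9 of 9. Each omission leaves the sample numbers unbalanced between groups, so these counts also carry the difference between numbers. At each sample number metformin was below control in 9 of 9 members, as in 24.3% of all genes. In pieces of tissue, fewer cells of a type and less RNA per cell cannot be told apart.

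The arrays had 68.5% and 69.1% of probes well above background in metformin 1 and 2, and 65.1% and 68.9% in control 1 and 2, and no spot was saturated. The 4 arrays shared a slide and a scan, with metformin 1 and 2 at positions 3 and 4 and control 1 and 2 at positions 1 and 2, so position and treatment cannot be told apart. Values are log2 spot signals after subtraction of the array's 75th percentile, so that 0 is the level of a probe at that percentile, and levels of different probes are not compared. Of the 14 probes, 13 were well above background on all 4 arrays and passed the filter on dim probes. Ileal markers were present on every array (6 of 6 well above background), but metformin 1 stood apart in most of its region markers. The bile acid binding protein Fabp6 and the bile acid transporter Slc10a2 read 4.16 and -0.89 in metformin 1, with 8.70 and 4.93 in metformin 2. They read 8.94 and 4.46 in control 1, and 8.29 and 3.28 in control 2. Of the 6 ileal markers, 5 had a lower mean with metformin, against 42.1% of all genes. Cubn went the other way, at 6.59 and 6.28 in metformin 1 and 2, against 6.545 and 5.90 in control 1 and 2.

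**Figure D1:**
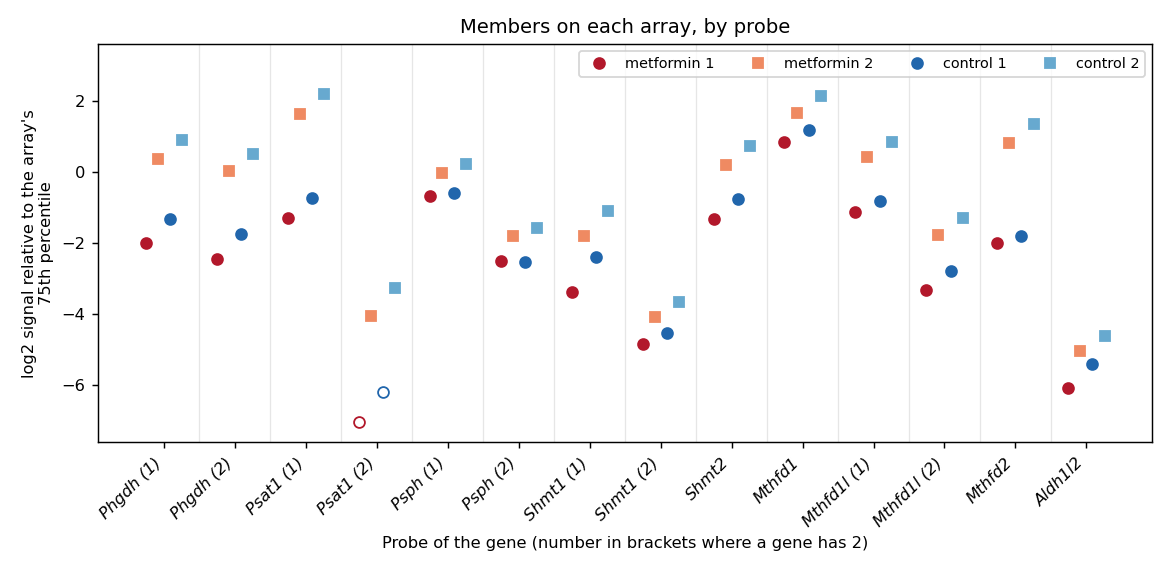
Scaled log2 signal, with the 75th percentile of the array at 0 (vertical axis), for the 14 probes of the 9 members (horizontal axis), 1 point per array, metformin 1 and 2 to the left of control 1 and 2; open points were not well above background. In every probe metformin 2 and control 2 (squares) lie above metformin 1 and control 1 (circles).

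Phgdh, the dehydrogenase that commits 3-phosphoglycerate to serine, read -1.98 in metformin 1 and 0.37 in metformin 2, against -1.32 in control 1 and 0.89 in control 2. Metformin 2 therefore lay above control 1, and the groups overlapped. The difference of metformin minus control was -0.59 (SE 1.12; 95% interval -3.58 to 2.40). A second Phgdh probe read -2.44 and 0.02 in metformin 1 and 2, against -1.75 and 0.52 in control 1 and 2, and so gave the same order of arrays with nearly the same difference (-0.59).

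Psat1, the aminotransferase of the second step, had the widest range of the members. Its bright probe read -1.30 in metformin 1 and 1.63 in metformin 2, against -0.73 in control 1 and 2.20 in control 2. Within a group the sample labelled 2 was 7.60-fold above the sample labelled 1 for metformin and 7.61-fold for control, whereas the groups differed by -0.57 (SE 1.42; 95% interval -4.36 to 3.22). The difference between the groups was thus smaller than the spread inside either group. The second Psat1 probe, on the same accession, was well above background in metformin 2 (-4.04) and control 2 (-3.26) but not in metformin 1 (-7.02) or control 1 (-6.18), and did not pass the filter.

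Psph, the phosphatase of the last step, varied least. It read -0.69 in metformin 1 and -0.03 in metformin 2, against -0.59 in control 1 and 0.23 in control 2. The difference was -0.18 (SE 0.45; 95% interval -1.37 to 1.02). Its second probe read -2.51 and -1.79 in metformin 1 and 2, against -2.53 and -1.57 in control 1 and 2, and was the 1 probe of 14 in which metformin 1 was not the lowest array.

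The promoters of these 3 genes are shown because the genes shared an order of arrays with very different ranges; each runs from 250 bases before to 50 bases after an annotated start (RefSeq, GRCm38.p6, all on the minus strand). Capitals mark a match to the core of the antioxidant response element, spelled out with the other motifs below.
Phgdh, chr3:98339920-98340219: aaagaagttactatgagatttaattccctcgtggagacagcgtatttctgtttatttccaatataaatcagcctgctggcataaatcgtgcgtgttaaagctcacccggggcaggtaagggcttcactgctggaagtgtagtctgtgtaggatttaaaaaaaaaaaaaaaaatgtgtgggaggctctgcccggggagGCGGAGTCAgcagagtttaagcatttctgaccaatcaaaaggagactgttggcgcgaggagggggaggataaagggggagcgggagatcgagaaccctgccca
Psat1, chr19:15925010-15925309: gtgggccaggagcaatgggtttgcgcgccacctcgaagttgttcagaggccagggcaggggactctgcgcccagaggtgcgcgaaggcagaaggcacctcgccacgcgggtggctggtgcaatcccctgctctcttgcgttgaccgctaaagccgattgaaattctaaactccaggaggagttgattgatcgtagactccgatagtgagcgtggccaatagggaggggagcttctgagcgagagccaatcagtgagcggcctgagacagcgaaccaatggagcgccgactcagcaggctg
Psph, chr5:129787204-129787503: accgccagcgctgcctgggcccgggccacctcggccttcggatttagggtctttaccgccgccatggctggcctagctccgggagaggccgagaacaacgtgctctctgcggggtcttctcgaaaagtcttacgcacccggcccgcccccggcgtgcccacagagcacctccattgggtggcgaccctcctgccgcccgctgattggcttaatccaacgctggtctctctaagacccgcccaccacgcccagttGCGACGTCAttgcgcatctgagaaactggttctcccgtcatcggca
The Phgdh match begins 53 bases before the start and the Psph match at base 5 after it, and neither the Psat1 window nor that of its second annotated start has one.

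Mitochondrial enzymes followed the serine synthesis genes across the arrays. Shmt2, the mitochondrial hydroxymethyltransferase, read -1.31 in metformin 1 and 0.20 in metformin 2, against -0.76 in control 1 and 0.72 in control 2 (difference -0.54, SE 0.76; 95% interval -2.575 to 1.501). Mthfd2, the mitochondrial dehydrogenase and cyclohydrolase that is low in most resting adult tissues, read -1.99 in metformin 1 and 0.81 in metformin 2, against -1.80 in control 1 and 1.35 in control 2. Sample 2 exceeded sample 1 by 6.96-fold within metformin and 8.88-fold within control, so the difference between groups, -0.37, had the largest standard error of the 9 (1.44; 95% interval -4.22 to 3.49). Its promoter is shown because Mthfd2 had the largest difference between the samples labelled 2 and those labelled 1 among the members (RefSeq, GRCm38.p6, minus strand, without a match to the motifs searched).
Mthfd2, chr6:83317555-83317854: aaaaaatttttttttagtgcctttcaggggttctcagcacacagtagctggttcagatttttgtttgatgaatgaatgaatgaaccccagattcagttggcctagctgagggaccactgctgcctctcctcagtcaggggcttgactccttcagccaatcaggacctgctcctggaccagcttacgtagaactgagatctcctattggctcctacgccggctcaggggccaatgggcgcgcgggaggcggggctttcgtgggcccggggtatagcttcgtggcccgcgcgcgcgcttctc

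Mthfd1l, the mitochondrial formyl-tetrahydrofolate synthetase that releases formate, read -1.12 in metformin 1 and 0.43 in metformin 2, against -0.82 in control 1 and 0.86 in control 2. A second Mthfd1l probe, on another transcript accession, read -3.32 and -1.77 in metformin 1 and 2, against -2.79 and -1.30 in control 1 and 2. Both probes gave the same order, with differences of -0.36 (SE 0.81; 95% interval -2.54 to 1.82) for the brighter and -0.50 for the dimmer. Aldh1l2, the mitochondrial 10-formyltetrahydrofolate dehydrogenase, had low spot signals, with linear spot signals of 12.9 and 32.5 in metformin 1 and 2 and of 21.7 and 59.7 in control 1 and 2. Its log2 values were -6.07 and -5.04 in metformin 1 and 2, against -5.40 and -4.60 in control 1 and 2. The difference was -0.55 (SE 0.52; 95% interval -1.93 to 0.83), and with normexp background correction the samples labelled 1 and 2 of this gene were no longer separated.

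The cytosolic folate enzymes Shmt1 and Mthfd1 spanned 2.28 and 1.30 log2 units over the 4 arrays, less than Psat1, Mthfd2 and Phgdh. The mitochondrial Shmt2, Mthfd1l and Aldh1l2 spanned 2.03, 1.98 and 1.46, so the ranges were not split by compartment. Shmt1, the cytosolic hydroxymethyltransferase, read -3.38 in metformin 1 and -1.81 in metformin 2, against -2.40 in control 1 and -1.10 in control 2. It had the largest difference of the members, -0.84 (SE 0.74; 95% interval -2.81 to 1.13), yet metformin 2 lay above control 1. Without metformin 1 the Shmt1 difference was -0.06, and without control 2 it was -0.20. Its second probe gave -0.36, from -4.84 and -4.07 in metformin 1 and 2 and -4.53 and -3.65 in control 1 and 2. Mthfd1, the cytosolic trifunctional enzyme, read 0.83 and 1.66 in metformin 1 and 2, against 1.20 and 2.13 in control 1 and 2 (difference -0.42, SE 0.50; 95% interval -1.76 to 0.92).

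**Figure D2:**
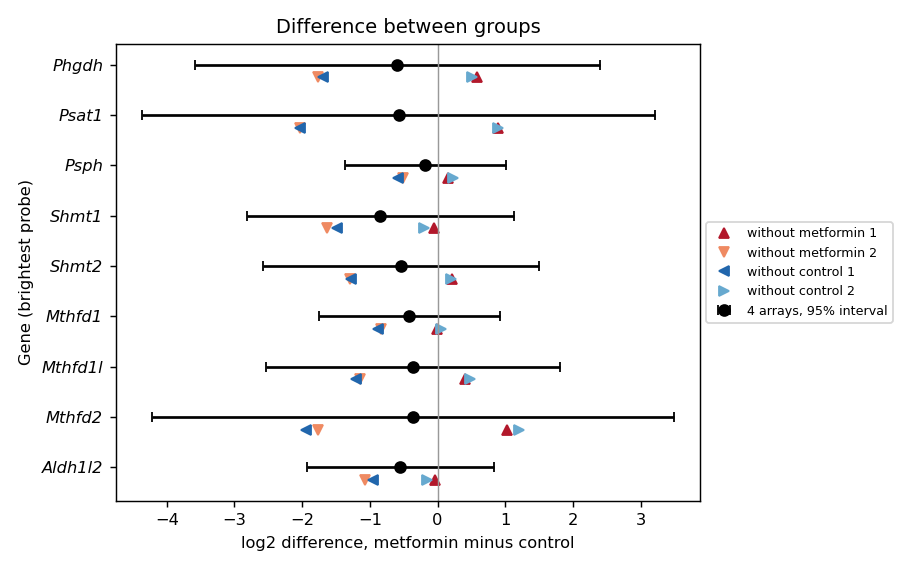
Log2 difference of metformin minus control (horizontal axis) for the brightest probe of each member (vertical axis): black points with 95% intervals use all 4 arrays, and coloured triangles leave out 1 array. Every interval crosses 0, and for 6 members the difference is above 0 without metformin 1.

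Between groups, 0 of 9 members were separated without overlap, against 12.5% of all genes higher and 8.46% lower with metformin, and 0 of 9 differed at least 2-fold without overlap, against 0.633% higher and 2.3% lower. In limma's fit 0 of 9 members and 0 of 21649 genes passed the adjusted threshold in either direction (0% higher and 0% lower). At an unadjusted p under 0.05 there were 0 members and 1.6% of all genes, and the smallest unadjusted p among the members was 0.31, for Shmt1. An exact permutation test of 2 samples against 2 cannot go below p = 0.33 two-sided. The intervals leave room for differences of more than 2-fold in either direction for 7 of the 9 members; for Mthfd1 and Aldh1l2 the upper bounds were 0.92 and 0.83, just under 2-fold.

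The order of the arrays was the same in all 9 members: metformin 1 lowest, then control 1, metformin 2 and control 2. This order, picked out after the values were seen, held for 11.3% of all genes tested. Within each number, metformin was below control in 9 of 9 members, as in 24.3% of all genes. Differences of the mean of samples labelled 2 minus the mean of samples labelled 1 were 2.97 for Mthfd2, 2.93 for Psat1, 2.28 for Phgdh, 1.61 for Mthfd1l, 1.497 for Shmt2 and 1.43 for Shmt1, and under 1 for Aldh1l2 (0.91), Mthfd1 (0.88) and Psph (0.74). Thus 6 of 9 members were separated by the sample number with at least 2-fold between means, as were 5.96% of all genes. In both groups taken singly, sample 2 was at least 2-fold above sample 1 for 6 of 9 members and for 3.79% of all genes. Phgdh exceeded 99.3% of genes in this difference and Psph 89.5%. The labels do not say what the numbers stand for, so no test was made of them. Each array's 75th percentile signal, which the scaling subtracts, had the same order of arrays. It was 864 in metformin 1, 915 in control 1, 1067 in metformin 2 and 1453 in control 2. The part of array brightness in the members' values was not tested.

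**Figure D3:**
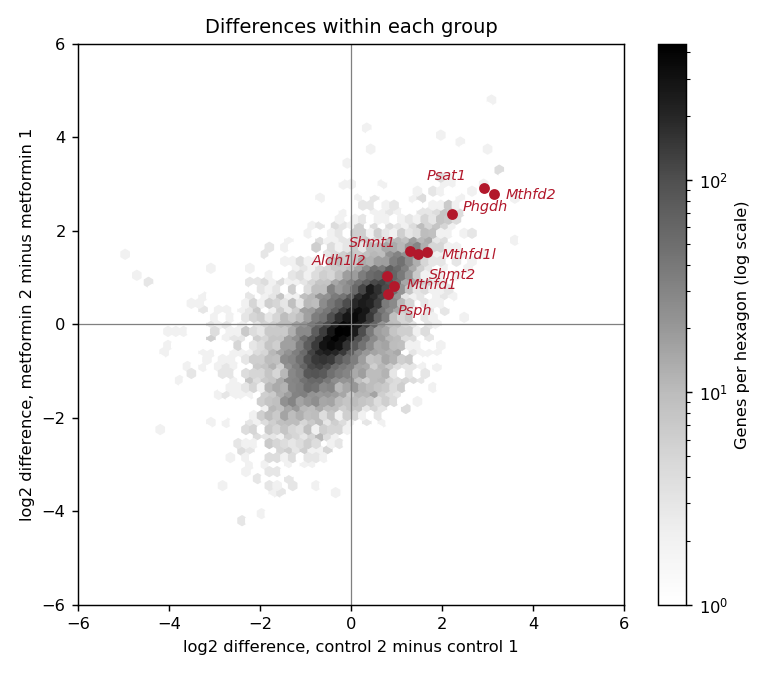
Log2 difference of metformin 2 minus metformin 1 (vertical axis) against control 2 minus control 1 (horizontal axis) for all genes tested (grey hexagons, shaded by a log scale of genes per hexagon) and the 9 members (red points); 18 genes lie outside the axes, which end at 6. Psat1, Mthfd2 and Phgdh lie at the far upper right, above 2 in both groups, and all 9 members are above 0 in both.

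Genes with the pattern closest to that of Psat1, the member of widest range, were sought over the 4 arrays by the root mean square difference of values centred on each gene's own mean. Outside the members these were Srm, the spermidine synthase (0.14), Atf3, a stress-induced transcription factor (0.16), Trmt61a, a tRNA methyltransferase subunit (0.20), Vldlr, a lipoprotein receptor (0.21), and Arc, an immediate early gene (0.23). Atf3 read -0.05 and 3.32 in metformin 1 and 2, against 0.74 and 3.74 in control 1 and 2. Within the members Mthfd2 was as close (0.14) and Phgdh next (0.32), while Psph was farthest (1.11). Of 14584 named genes, 68 lay within 0.5 of Psat1, a description over 4 arrays.

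Other known ATF4 targets were spread by the sample number as well. Of 22 tested, 17 had both samples labelled 2 above both samples labelled 1, against 27.6% of all genes. The median difference between the numbers was 1.24, against -0.12 over all genes. Between metformin and control 0 of 22 passed and 14 had a lower mean, against 42.1% of all genes. The median difference between groups was -0.13, against 0.06 over all genes. The asparagine synthetase Asns read 1.91 and 4.61 in metformin 1 and 2, against 2.20 and 4.65 in control 1 and 2. The glutathione-degrading enzyme Chac1 read -0.43 and 2.72 in metformin 1 and 2, against -0.95 and 3.11 in control 1 and 2. Atf4 itself, read by its brightest probe, differed by 0.06 between groups and by 1.06 between the sample numbers, and its 2 kept probes gave opposite signs between groups. Gdf15, a stress hormone, read -2.11 and 2.34 in metformin 1 and 2, against -1.46 and 3.15 in control 1 and 2. The list's median difference between groups was 0.43 without metformin 1 and 0.51 without control 2, so its sign changed with the array left out. These omissions also leave the sample numbers unbalanced between groups.

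Not every stress target did so. Trib3, a pseudokinase induced by ATF4, read 3.48 and 2.30 in metformin 1 and 2, against 2.60 and 3.22 in control 1 and 2, and Ddit3, which encodes CHOP, read -0.16 and -0.20 against -0.53 and 0.30. Neither was separated by the sample number or by treatment. Stc2, a secreted glycoprotein, read -7.36 and -2.58 in metformin 1 and 2, against -5.30 and -2.22 in control 1 and 2. It was not well above background in metformin 1, so its difference has no exact size. Differences among the genes named by size were otherwise those of Ppp1r15a, a phosphatase subunit that reverses eIF2 phosphorylation (-0.82, SE 0.71), Gdf15 (-0.73, SE 2.17) and Atf3 (-0.61, SE 1.54), all with an adjusted p of 0.9996 in limma's fit.

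Promoters could be matched for 8 of the 9 members, and Aldh1l2 had no entry. The core of the C/EBP-ATF response element, to which ATF4 binds with a C/EBP partner, was searched as TGATGNAA on both strands and found in 0 of the 8 members' promoters and in 3.97% of all 32851 promoters of the same length. The E-box CACGTG, which reads the same on both strands, was found in 0 of the 8 members and in 7.15% of all promoters. The antioxidant response element core, searched as TGACNNNGC on both strands, was found in 2 of the 8, Phgdh and Psph, and in 12.4% of all. No member's window held 2 of these motifs, and a window without a match says only that these letters are not in it.

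Among other ATF4 targets, 11 of the 23 with a promoter entry held the C/EBP-ATF core. It is printed here in capitals, with 10 bases on each side, for Atf3 and Vldlr, whose pattern was close to that of Psat1, for Asns and Chac1, and for Trib3, which did not follow the sample number (RefSeq, GRCm38.p6, each on its gene's strand).
Atf3, chr1:191183426-191183453, minus strand: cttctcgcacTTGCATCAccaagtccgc
Vldlr, chr19:27216810-27216837, plus strand: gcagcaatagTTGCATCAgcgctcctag
Asns, chr6:7693215-7693242, minus strand: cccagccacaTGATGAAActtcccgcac
Chac1, chr2:119351039-119351066, plus strand: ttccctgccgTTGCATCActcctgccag
Trib3, chr2:152344029-152344056, minus strand: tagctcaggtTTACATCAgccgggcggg
In 6 of the 8 tested genes with a match both samples labelled 2 were above both samples labelled 1. The same held in 9 of the 12 tested genes without a match and in 27.6% of all genes. The median difference between the sample numbers was 2.045 in the genes with a match and 0.84 in those without. Whether the motif has a part in this was not tested.

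Folate cycle partners outside the members were mixed. Of 22 tested, 0 passed, and 10 had a higher and 12 a lower mean with metformin, against 57.9% and 42.1% of all genes. The median difference was -0.02 (0.079 without metformin 1 and 0.11 without control 2). By sample number, 11 were higher and 6 lower in samples 2, against 27.6% and 38.2% of all genes. Gart, a purine synthesis enzyme that uses formyl-tetrahydrofolate, read -2.99 and -1.39 in metformin 1 and 2, against -2.26 and -0.72 in control 1 and 2 (difference -0.70, SE 0.79). Fpgs, which adds the glutamate tail that keeps folate in cells, read -0.58 and 1.54 against 0.34 and 1.94 (difference -0.66, SE 0.93). Without metformin 1 these differences were 0.10 for Gart and 0.40 for Fpgs.

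The intestinal folate carrier Slc46a1 ran the opposite way across the arrays, at 4.83 and 1.66 in metformin 1 and 2, against 2.85 and 1.13 in control 1 and 2 (difference 1.26, SE 1.24). Metformin 1 was thus its highest array and the lowest for the members, and without it the Slc46a1 difference was -0.33. Ftcd, a histidine-degrading folate enzyme, was higher with metformin without overlap and was not well above background in control 1. Ftcd passed the filter through the metformin samples. Among paralogues of the members, Mthfd2l, the second mitochondrial dehydrogenase, read -1.27 and -0.16 in metformin 1 and 2, against -1.18 and -0.20 in control 1 and 2 (difference -0.03), and Aldh1l1, the cytosolic counterpart of Aldh1l2, read 4.45 and 4.84 against 4.63 and 4.18 (difference 0.24). Tyms, the thymidylate synthase, differed by -0.33 with overlap.

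Genes that use or carry serine and glycine had a median difference of 0.03 (-0.012 without control 1), with 0 of 18 passing. Their means were higher in 10 and lower in 8, against 57.9% and 42.1% of all genes. By sample number, 8 of the 18 were higher and 4 lower in the samples labelled 2, against 27.6% and 38.2% of all genes. Cbs, the first enzyme of transsulfuration, which consumes serine, read -3.33 and -1.80 in metformin 1 and 2, against -1.67 and -1.41 in control 1 and 2. Its groups did not overlap and its difference was -1.02 (SE 0.59, limma adjusted p = 0.9996), but -0.26 without metformin 1. Alas1, which takes glycine into haem synthesis, differed by 0.57 without overlap. The neutral amino acid carrier Slc1a5 differed by -0.54 and the mitochondrial serine carrier Sfxn1 by 0.45, both with overlap.

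Most nucleotide synthesis genes were spread by the sample number as well. Of 15 tested, 0 passed and 13 had a lower mean with metformin (median difference -0.44), against 42.1% of all genes. Both samples labelled 2 were above both samples labelled 1 in 13 (median 0.88), against 27.6% of all genes. Ppat, the first enzyme of purine synthesis, read -3.98 and -2.18 in metformin 1 and 2, against -2.87 and -1.73 in control 1 and 2. The guanine nucleotide enzymes Impdh2 and Impdh1 differed by -0.68 and -0.61, and the ribonucleotide reductase subunit Rrm1 by -0.63. Without metformin 1 the list's median difference was 0.12, with 5 of 15 lower. Glycolytic genes down to 3-phosphoglycerate, which supplies serine synthesis, were 8 of 11 higher with a median of 0.20, against 57.9% of all genes with a higher mean, and 0 passed. Their median was 0.08 with quantile normalization and -0.07 in the deposited table without scaling. Hk2, a hexokinase, differed by 0.43 between groups and by 3.58 between sample numbers, while Tpi1 and Gapdh differed by 0.31 and 0.26 between groups and were lower in the samples labelled 2.

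**Figure D4:**
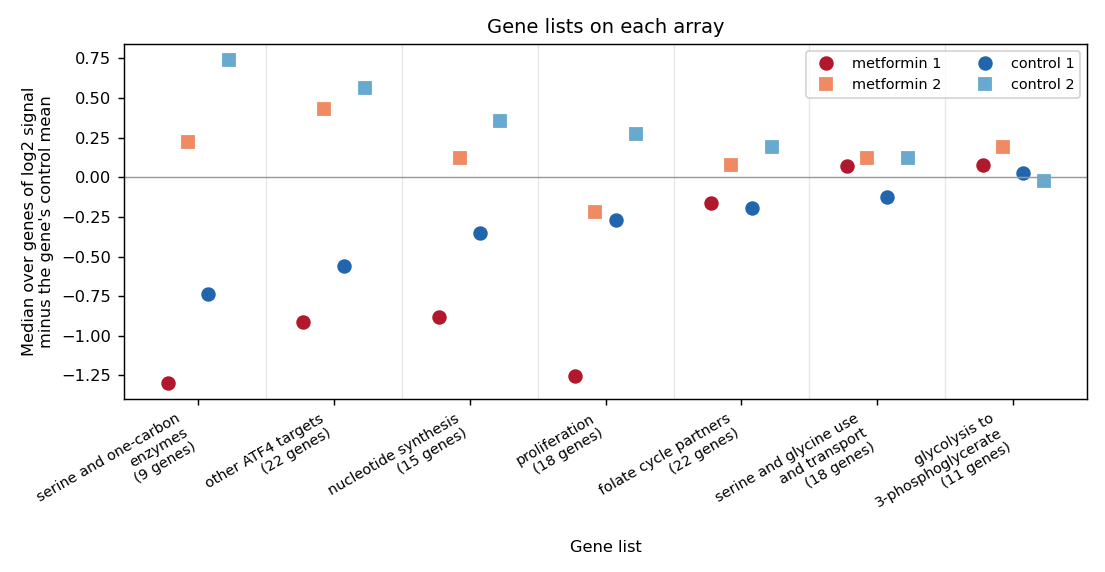
Deviation of log2 signal from the control mean, as the median over the genes of a list (vertical axis), for the members and 6 other lists (horizontal axis), 1 point per array, metformin 1 and 2 to the left of control 1 and 2. The members, the ATF4 targets, the nucleotide synthesis genes and the proliferation markers share the order metformin 1, control 1, metformin 2, control 2 from low to high. For the proliferation markers control 1 (-0.27) and metformin 2 (-0.22) lie close together. The glycolytic genes lie within about 0.2 of the control mean.

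Proliferation markers had a lower mean with metformin in 18 of 18 (median -0.74), against 42.1% of all genes. Of these 7 did not overlap, against 8.46% of all genes, 0 passed, and 11 of 18 were higher in the samples labelled 2, against 27.6%. Without metformin 1 the median was -0.22, with 13 of 18 lower, and Ccnb1, Cdk1, Mcm2, Mcm3 and Pcna were not. Mki67 read 1.85 and 2.60 in metformin 1 and 2, against 2.80 and 3.14 in control 1 and 2. Top2a, Aurkb, Ccna2 and Cdk1 differed by -0.92, -0.87, -0.81 and -0.80. Summed over the 18 genes, scaled signal (1 being the 75th percentile) was 39.2 and 63.4 in metformin 1 and 2, against 59.8 and 80.6 in control 1 and 2, the same order of arrays as in the members, with metformin 2 and control 1 close together. The part of cell division in the members' values was not tested.

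Markers of other tissue in the pieces also differed between arrays, and their part in the members' values was not tested. Summed signal of 8 smooth muscle markers was 6.58 and 7.09 in metformin 1 and 2, against 136.8 and 8.20 in control 1 and 2, with Actg2 and Des differing by -3.47 and -3.31. That of 8 fibroblast markers was 8.81 and 4.72 in metformin, against 39.5 and 18.4 in control (Lum -3.29, Col1a1 -2.18). That of 7 adipocyte markers was 1.58 and 0.47 against 4.85 and 10.01 (Plin4 -3.61, Adipoq -3.55), without Lep, which did not pass the filter. Among these 7, Plin1 was not well above background in metformin 2 and passed the filter through the control samples. The control samples were above the metformin samples in these 3 lists. The highest array was control 1 for muscle and fibroblast markers and control 2 for adipocyte markers; control 2 was also the highest for the members. Nerve and glia markers had a median difference of -1.96 over 7 tested genes, of which Vip, Stmn2 and Uchl1 were not well above background in metformin 1 and passed the filter through the control samples; S100b did not pass. The nerve median was -1.05 over the 4 genes well above background on all arrays and -0.40 with normexp correction. Endothelial markers had a median of -1.11 with 6 of 8 lower (Cdh5 -1.71, Cldn5 -1.70), against 42.1% of all genes. Pecam1 and Kdr went the other way, by 0.07 and 0.15. The endothelial median was -0.69 without metformin 1 and -0.52 with normexp correction. Without control 1 the median differences of the smooth muscle and nerve lists were -0.56 and -0.49, against -3.12 and -1.96 with it.

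Epithelial markers were nearly level, with summed signals of 889 and 881 in metformin 1 and 2, against 778 and 706 in control 1 and 2. Of 8, 6 had a higher mean (Krt20 0.43, Cdx2 0.34), against 57.9% of all genes, and Krt19 (-0.06) and Cdx1 (-0.14) a lower one. By sample number, 4 were higher and 4 lower in the samples labelled 2, against 27.6% and 38.2% of all genes. Markers of the proximal small intestine summed to 936 in metformin 1 and 91.7 in metformin 2, against 197 in control 1 and 125.5 in control 2, and those of the ileum to 164 and 663.5 against 714 and 473; Cyp2b10 and Slc2a2 of the proximal list differed by 1.27 and 1.62. T cell markers summed to 31.3 and 11.2 in metformin 1 and 2, against 9.89 and 8.15 in control 1 and 2 (Gzmb 2.18, Gzma 1.79). Cd8b1 of that list was not well above background in control 1 and passed the filter through the metformin samples. Metformin 1, the lowest array for the members, was thus the highest for proximal and T cell markers, whose median differences were 0.77 and 0.99 with it and -0.67 and -0.05 without it. The ileal median was -0.90 with metformin 1 and 0.29 without it. B and plasma cell markers differed by a median of 0.38 with 5 of 8 higher, among them Ms4a1 (0.63), against 57.9% of all genes. Jchain (-0.48), Sdc1 (-0.29) and Mzb1 (-0.01) had lower means. Without metformin 1 their median was -0.23. Macrophage and neutrophil markers differed by a median of 0.48 over 6 tested genes. Of these, 4 had a higher and 2 a lower mean, against 57.9% and 42.1% of all genes. S100a8 did not pass the filter and Cd68 was not on the array. Lyz2 differed by -0.83. S100a9 was higher with metformin without overlap. It was not well above background in control 1 and passed the filter through the metformin samples. The 2 pancreatic markers well above background on all arrays differed by 0.38 (Cel 0.45, Ctrb1 0.31). Cela3b passed the filter through the metformin samples and was not well above background in either control.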

How the data were processed

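Spot intensity values on a linear scale were deposited for 4 single-colour arrays made with Agilent Feature Extraction 10.7.3.1, per the file headers, whose statistics include spatial detrending; they were not scaled between arrays. The authors' deposited table described as normalized held intensity equal to the raw median spot signal for all 39030 probes with 1 spot on each of the 4 arrays, and was used only as an alternative. Its 250 other columns were empty and were not used. Processed signals were put on the log2 scale and each array's 75th percentile over non-control probes was subtracted. Spots that the scanner software called non-uniform or outlying were dropped and the remaining spots of each probe averaged, with 47 of 39429 probes dropped for want of a usable spot.

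Accessions without version numbers were matched to the RefSeq gene table of GRCm38.p6, which named 27508 probes with 1 symbol each and left 11921 unnamed. The headers name another build for the array design, so coordinates are given only for RefSeq sequences. A probe was kept if both arrays of either group had it well above background (26441 probes), and the brightest kept probe stood for its gene (21649 genes and unnamed transcripts). Metformin was compared with control by limma 3.58.1 in R 4.3.3 (lmFit and eBayes, two-sided, 2 residual and 2.43 prior degrees of freedom), with Benjamini-Hochberg adjustment over all 21649 and a threshold of 0.05. The fit was tested on simulated data with known changes, only as a check that it ran correctly. The simulated spread was smaller than that of the members (SD 0.47 to 2.23 within a group), without a difference between sample numbers. That check therefore does not show how large a change could be found in these data. The number of arrays limits the precision of every value.

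The 9 members and the 18 other gene lists were chosen with earlier results of these data known. The rule for named genes took the 9 members with every probe, the 4 (pathway lists) or 2 (cell type and region lists) genes with the largest difference between groups, 12 genes fixed by name, and the 5 genes closest to the widest-ranging member; a few genes the rule names are not reported here. Genes named outside it (Ccnb1, Mcm2, Mcm3, Pcna, Cubn, Plin1, Uchl1, Pecam1, Kdr, Krt19, Cdx1, Cd8b1, Jchain, Sdc1, Mzb1 and Ctrb1) were chosen after their values were seen. Same-numbered samples share a number only, so the replicate number entered as a block was an alternative, beside other scalings, background corrections, filters, probe rules and the omission of each array. The intended normexp alternative used median spot signals, since mean spot signals were not among the columns. Slide and scan were shared by all 4 arrays, so neither could enter as a block.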

Additional observations from a re-analysis of the deposited data

How the results depend on the processing

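All 9 members kept a lower mean with metformin, and none passed the adjusted threshold, under the 11 alternatives that kept all 4 arrays. The omission of 1 array, which leaves the sample numbers unbalanced between groups, turned 13 differences. Without metformin 1 they were 0.58 for Phgdh, 0.89 for Psat1, 0.15 for Psph, 0.22 for Shmt2, 0.41 for Mthfd1l and 1.03 for Mthfd2. Without control 2 they were 0.51, 0.89, 0.23, 0.20, 0.48 and 1.21 for the same genes and 0.051 for Mthfd1. The differences over the 4 omissions spanned -1.77 to 0.58 for Phgdh, -2.04 to 0.89 for Psat1, -0.59 to 0.23 for Psph, -1.29 to 0.22 for Shmt2, -0.89 to 0.051 for Mthfd1, -1.20 to 0.48 for Mthfd1l, -1.94 to 1.21 for Mthfd2, -1.63 to -0.06 for Shmt1 and -1.07 to -0.03 for Aldh1l2. Over the 4 omissions, members with a lower mean numbered 2 to 9 and with a higher mean 0 to 7. Genes at least 2-fold changed without overlap, 137 higher and 499 lower with all arrays, numbered 354 to 1540 higher and 850 to 1776 lower over the omissions. These counts were 13 and 116 with normexp background correction, 22 and 198 in the deposited table after scaling, 10 higher and 453 lower in it as deposited, 318 and 811 without a filter on dim probes, and 42 higher when every array had to be well above background; the cause was not tested. As deposited, the table moved the median difference of all genes to -0.17, against 0.06, so its differences are relative to that shift. Genes passing the adjusted threshold were 0 in each direction under all 15 alternatives, and the members' smallest adjusted p ran from 0.63 to 1. With the replicate number as a block, the members' differences were unchanged, 5 of 9 had an unadjusted p under 0.05 as had 7.11% of all genes, and the smallest adjusted p in limma's fit was 0.63; all 9 were lower in metformin than in control at each number, as were 24.3% of genes. The deviations of same-numbered samples correlated at r = 0.56 across genes, but 2 pairs and unexplained numbers do not establish a pairing. Counts by sample number under other scalings were chosen after seeing the data: 8 or 9 members kept the samples labelled 2 above those labelled 1, as did 20.5% to 50.5% of all genes, and 8 or 9 kept the order of arrays, as did 8.22% to 31.7%. The low signal of Aldh1l2 limits the precision of its difference. The other lists' medians moved by 1 SD between samples or more in 21 comparisons with an alternative and by less in all others.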
